A study of Mus musculus with 4 samples.

Results

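Atoh1, Barhl1, Barhl2, Pax6 and Mfap4 are 5 of the 32286 genes counted in 4 single-cell RNA libraries, chosen by name because they mark or regulate the granule neuron lineage of the cerebellum. Each library holds cells that a sort for tdTomato fluorescence took from mouse cerebella at E15.5, with embryos pooled before dissociation. The first pair of libraries, here called En1/2 CKO, carried Ptf1aCre/+, both alleles of En1 and of En2 as lox alleles (En1lox/lox, En2lox/lox) and R26LSL-tdT/+, and the other pair, the controls, carried Ptf1aCre/+ and R26LSL-tdT/+ with no lox allele of En1 or En2 in the label. All 4 libraries thus came from embryos with a single Ptf1aCre allele, in which Cre is expressed from the Ptf1a locus and tdTomato marks cells with a history of Cre activity. Nothing in the labels says how many embryos entered a pool, so p-values measure the spread between libraries, each of them a pool.

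In the mouse, granule neurons arise from the rhombic lip, a dorsal germinal zone whose progenitors express the basic helix-loop-helix factor Atoh1. The homeobox genes Barhl1 and Barhl2 act downstream of Atoh1 in that lineage, and the paired homeobox factor Pax6 is used by granule cell precursors and also by ventricular zone progenitors. Mfap4 encodes a secreted protein of the extracellular matrix that binds elastic fibres and collagen. Ptf1a, in contrast, is the basic helix-loop-helix factor of the ventricular zone, from which the GABAergic Purkinje cells and interneurons come, so a granule-lineage programme is not the one the sort was built on. The question asked of the 5 genes was in which of the sorted cells they were found, and whether their levels there differed between En1/2 CKO and control.

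The genes lie on 4 chromosomes of GRCm38 (mm10), Atoh1 at chr6:64729125-64731245 on the plus strand, Barhl1 at chr2:28907679-28916668 on the minus strand, Barhl2 at chr5:106452523-106458166 on the minus strand, Pax6 at chr2:105668900-105697364 on the plus strand and Mfap4 at chr11:61485431-61488900 on the plus strand. Barhl2 shares chromosome 5 with En2 (chr5:28165694-28172166), so for Barhl2 the mutation and DNA linked to the lox allele cannot be told apart. The 3' end of Mfap4 overlaps Mapk7 on the opposite strand, which had 242 unique molecular identifiers (UMIs, each a counted RNA molecule) in the granule-lineage-like cells described next. Because Atoh1 and Barhl1 were found in the same cells, the 250 bases before their annotated starts are shown, from the RefSeq promoter table of GRCm38.p6, with each CAGCTG in capitals. CAGCTG is an E-box, the kind of site basic helix-loop-helix factors bind. It reads the same on both strands and occurs in 4271 of 32851 promoter windows of this length (13%).
Atoh1 (chr6:64728875-64729124, plus strand): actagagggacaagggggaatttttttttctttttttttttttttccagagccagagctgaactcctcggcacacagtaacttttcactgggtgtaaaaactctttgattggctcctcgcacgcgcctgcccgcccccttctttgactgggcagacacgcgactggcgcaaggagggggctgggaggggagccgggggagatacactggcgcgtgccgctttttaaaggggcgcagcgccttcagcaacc
Barhl1, upstream start (chr2:28916669-28916918, minus strand): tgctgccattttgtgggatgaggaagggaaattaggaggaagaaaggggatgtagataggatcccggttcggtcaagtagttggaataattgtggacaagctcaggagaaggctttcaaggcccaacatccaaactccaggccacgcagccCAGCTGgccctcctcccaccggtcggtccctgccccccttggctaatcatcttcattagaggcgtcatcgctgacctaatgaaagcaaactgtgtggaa
Barhl1, downstream start (chr2:28912496-28912745, minus strand): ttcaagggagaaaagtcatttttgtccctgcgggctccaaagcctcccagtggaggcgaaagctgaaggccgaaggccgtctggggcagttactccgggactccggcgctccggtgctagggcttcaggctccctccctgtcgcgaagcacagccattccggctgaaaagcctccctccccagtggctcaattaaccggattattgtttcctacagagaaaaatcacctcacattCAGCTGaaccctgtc
Each Barhl1 window holds 1 CAGCTG, 93 and 9 bases before its start, and the Atoh1 window holds none. The windows of Barhl2 and of the 2 Pax6 starts also hold none, and no window is shown for Mfap4. Whether any factor binds these letters was not measured.

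After filtering, 22851 cells were kept, 4893 and 7300 from the En1/2 CKO libraries and 9487 and 1171 from the controls. Total UMIs per library ranged from 5305154 to 21021428. Control replicate 2 stood apart, with a median of 13.4% mitochondrial UMIs over all its barcodes and 25.5% of barcodes passing the filters, against 63.9% to 94.6% in the other libraries. Pairs of libraries shared 10 to 32 cell barcodes. Clustering, done without the 5 genes, gave 20 clusters, and 1 of them, with 1055 cells, was led by Atoh1, Barhl1, Nrn1, Thsd7b and Mfap4. It also had raised levels of 7 of the 20 granule lineage markers that do not include the 5 genes, Reln, Meis1, Tlx3, Uncx, Lhx9, Pde1c and Cbln1, of 5 of 9 cycling markers (Mki67, Ube2c, Birc5, Hmgb2 and Nusap1), of 4 of 10 glutamatergic nuclear neuron markers (Slc17a6, Eomes, Lhx2 and Lhx9, the last also in the granule list) and of 2 of 13 Ptf1a intermediate progenitor markers (Hes6 and Insm1). It is called granule-lineage-like below. The name rests on the 5 genes together with the other markers: with the marker list that leaves the 5 genes out, this cluster took the name cycling. Where the 5 genes were found is therefore given as a description, with no test, while the naming used no comparison of genotypes.

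Most Atoh1 was found in this class. Over the 4 libraries 1089 of its 1412 UMIs in kept cells, 77.1%, came from these 1055 cells, and the share was 87.3% (95% exact Clopper-Pearson interval 84.4% to 89.8%) and 74.7% (69.3% to 79.5%) in the En1/2 CKO libraries, against 50.0% (44.1% to 55.9%) and 89.0% (83.9% to 92.9%) in the controls. These intervals, and all others given here, cover counting error only. The mean level of Atoh1 over the 4 libraries, in CPM (the gene's summed UMIs scaled to 1e+06 UMIs of the class), was 346 ± 129 in granule-lineage-like cells and 62.3 ± 36.5 in erythroid-like cells, the next class, and at most 8.95 in the 11 other classes (SD over libraries). The lowest granule-lineage-like library, at 215 CPM, lay above the highest erythroid-like one, at 104 CPM.

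Barhl1 followed the same cells, with 1218 of 1635 UMIs (74.5%) in the class. Its mean level was 374 CPM there and 53.8 CPM in erythroid-like cells. Barhl2 was rare everywhere: 26 of its 42 UMIs (61.9%) were in granule-lineage-like cells, and its level there, 6.93 CPM, overlapped that of erythroid-like cells, 4.83 CPM, over the libraries. Its share therefore rests on few molecules.

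Pax6 and Mfap4 were broader. Granule-lineage-like cells held 24.6% of the 6027 Pax6 UMIs, Ptf1a intermediate progenitor-like cells 19.4%, astroglia-like cells 17.4%, cycling-like cells 15.8% and radial progenitor-like cells 8.0%. The Pax6 level was nevertheless highest in granule-lineage-like cells, at a mean of 468 CPM, against 169 CPM in Ptf1a intermediate progenitor-like, 151 CPM in cycling-like, 141 CPM in astroglia-like and 124 CPM in radial progenitor-like cells, and the libraries of the first 2 classes did not overlap. In Purkinje-like cells it was 21.0 CPM, close to the 19.2 CPM in microglia-like cells, which should lack it. Of the 9244 Mfap4 UMIs, 47.9% were in granule-lineage-like cells, 17.5% in astroglia-like cells and 13.3% in Ptf1a intermediate progenitor-like cells. Its level was 1472 CPM in granule-lineage-like cells, 432 CPM in the few mural or meningeal-like cells and 210 CPM in astroglia-like cells. Levels of different genes are not compared here, since UMIs at the 3' end are not divided by length.

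**Figure D1:**
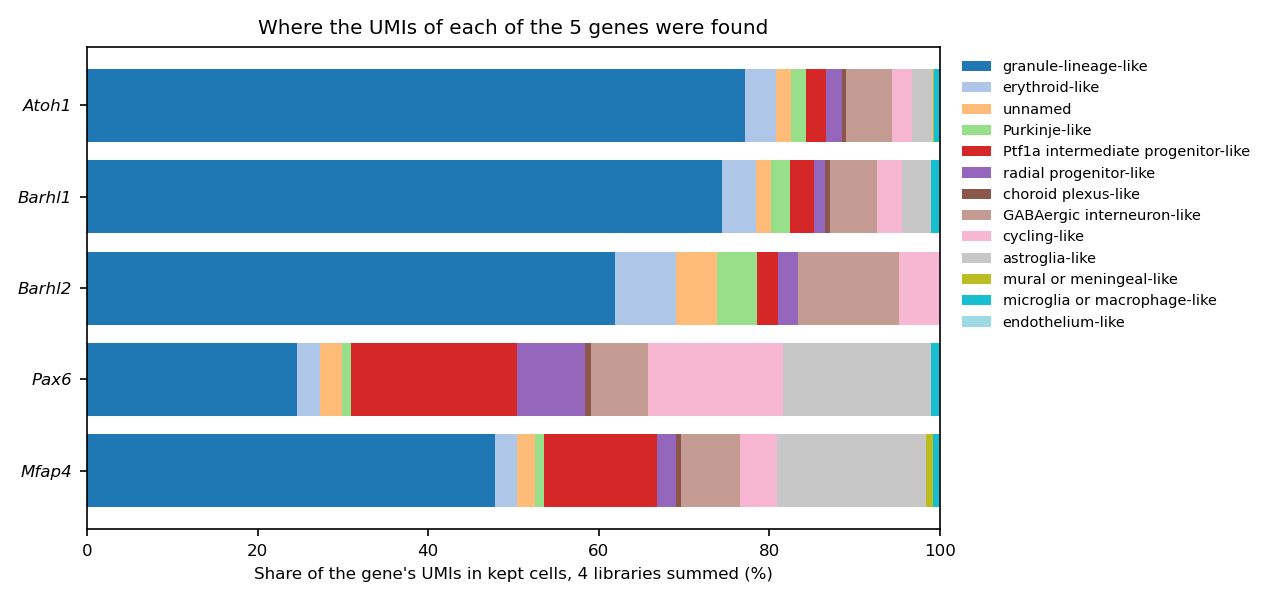
Share of each gene's UMIs in kept cells (%, x axis, 4 libraries summed) by cell class, 1 bar per gene. Granule-lineage-like cells hold 77.1% of Atoh1, 74.5% of Barhl1, 61.9% of Barhl2, 24.6% of Pax6 and 47.9% of Mfap4 UMIs.

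**Figure D2:**
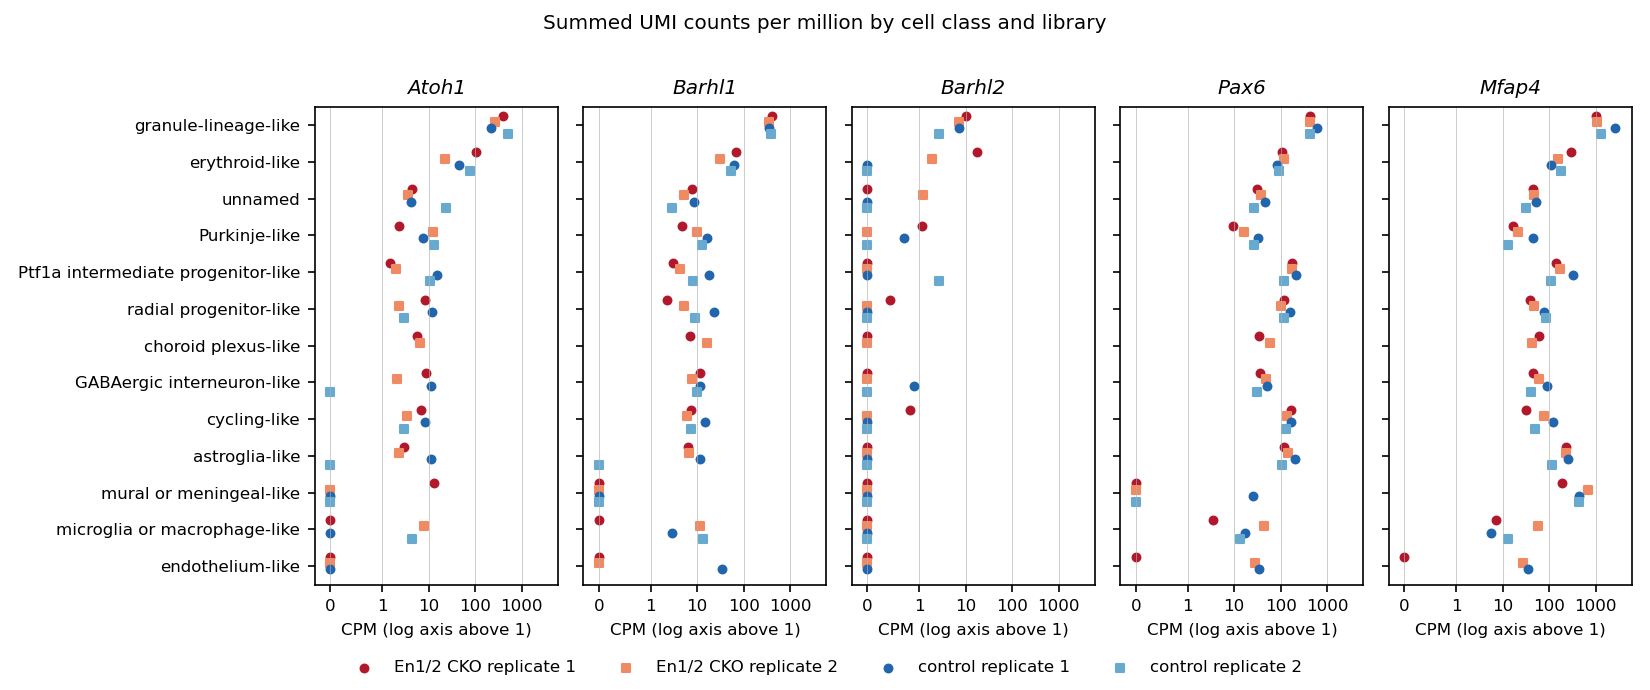
Level (CPM, x axis, logarithmic above 1) in each class (y axis), 1 point per library, En1/2 CKO in red and orange, control in blue. For Atoh1, Barhl1, Pax6 and Mfap4 the 4 granule-lineage-like points lie above every point of the class with the next highest mean.

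Single granule-lineage-like cells carried several of these genes. At 1 fixed depth, each cell thinned to 1000 UMIs, Atoh1 was detected in 28.9% and 20.8% of En1/2 CKO cells and in 13.2% and 45.1% of control cells. For Barhl1 the shares were 28.5% and 26.0% in En1/2 CKO and 25.5% and 30.1% in control cells, and for Pax6 29.8% and 37.0% in En1/2 CKO and 41.5% and 35.4% in control cells. Mfap4 was detected in 52.3% and 54.3% of En1/2 CKO cells and in 77.0% and 62.8% of control cells. In microglia-like cells the thinned shares of these 4 genes ran from 0% to 7.61%, below every granule-lineage-like share. In erythroid-like cells they reached 12.1% for Atoh1, 9.52% for Barhl1, 15.2% for Pax6 and 15.2% for Mfap4. Mfap4 reached 50% in the few mural or meningeal-like cells, and Barhl1 reached 16.7% in the few endothelium-like cells. How much of any of these shares is free RNA was not measured. Thinning left out 21 and 60 En1/2 CKO cells and 132 and 3 control cells. Without it, the shares for Atoh1 were 60.5% and 35.2% in En1/2 CKO and 17.3% and 75.0% in control cells, and the median cell had 5133 and 2510 UMIs in En1/2 CKO and 1210.5 and 2989.5 UMIs in control. The median microglia-like cell had 4396 and 1425 UMIs in En1/2 CKO and 3453 and 3128 UMIs in control, and unthinned 0% and 2.14% of microglia-like cells in En1/2 CKO and 0% and 1.41% in control had an Atoh1 UMI. Of the 402 granule-lineage-like cells with an Atoh1 UMI, 288 also had Barhl1, 285 had Pax6 and 374 had Mfap4, but only 8 had Barhl2. After thinning, the libraries went both ways. Barhl1 was found in 26.5% and 36.1% of En1/2 CKO cells with Atoh1, against 29.3% and 23.4% of those without it, and in 21.4% and 37.3% of control cells with Atoh1, against 26.1% and 24.2% without. Pax6 was found in 32.4% and 47.2% of En1/2 CKO cells with Atoh1, against 28.7% and 34.3% without, and in 35.7% and 27.5% of control cells with Atoh1, against 42.4% and 41.9% without. Mfap4 was found in 54.4% and 61.1% of En1/2 CKO cells with Atoh1, against 51.5% and 52.6% without, and in 92.9% and 60.8% of control cells with Atoh1, against 74.6% and 64.5% without. Before thinning, cells with Atoh1 were deeper (median 4555 UMIs with Atoh1 and 1244 without).

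The driver gene of the sort was close to absent from these cells, while the reporter was not. Ptf1a was at 3.70 and 4.93 CPM in En1/2 CKO and 2.92 and 2.70 CPM in control granule-lineage-like cells, against 110 and 106 CPM in En1/2 CKO and 86.8 and 92.7 CPM in control Ptf1a intermediate progenitor-like cells. The latter class was named with Ptf1a in its marker list, so its higher level was built into the naming. Ptf1a levels in Purkinje-like and interneuron-like cells are not compared here. Of the 402 cells with Atoh1, 5 had a Ptf1a UMI. TdTom, the reporter transcript, was at 469 and 643 CPM in En1/2 CKO and 397 and 575 CPM in control granule-lineage-like cells, against 499 and 605 CPM and 456 and 670 CPM over all kept cells of those libraries. TdTom was just as high in microglia-like cells, at 544 and 837 CPM in En1/2 CKO and 451 and 1177 CPM in control, so its level does not separate classes here. How the granule-lineage-like cells came to be in the sort was not tested.

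At a finer clustering the class split in 2, and Atoh1 was lower in the smaller cluster in all 4 libraries while Pax6 was not. In control replicate 2 the Atoh1 intervals of the 2 clusters overlapped. The larger cluster, of 840 cells, had the proliferation gene Mki67 at 169 and 173 CPM in En1/2 CKO and at 204 and 81.9 CPM in control, and the smaller, of 223 cells, had Mki67 at 3.97 and 12.6 CPM in En1/2 CKO and at 0 and 70.3 CPM in control. In the smaller one, Neurod1, a differentiation factor, was at 799 and 390 CPM in En1/2 CKO and 564 and 774 CPM in control, against 146 and 248 CPM and 143 and 155 CPM in the larger one. Cntn2, an adhesion molecule of premigratory granule neurons, was at 270 and 227 CPM in En1/2 CKO and 202 and 70.3 CPM in control, against 77.7 and 91.8 CPM and 78.9 and 49.7 CPM in the larger one. Atoh1 was 468 and 320 CPM in En1/2 CKO and 264 and 521 CPM in control in the larger cluster, and 59.6 and 18.9 CPM in En1/2 CKO and 27.8 and 281 CPM in control in the smaller. Barhl1 in the smaller cluster was at 270 and 264 CPM in En1/2 CKO and 230 and 387 CPM in control, against 441 and 363 CPM and 374 and 392 CPM in the larger, nearly equal in control replicate 2. Mfap4 was 799 and 969 CPM in En1/2 CKO and 1434 and 1090 CPM in control in the smaller cluster, against 1030 and 1054 CPM and 2805 and 1305 CPM in the larger. Pax6 was 473 and 415 CPM in En1/2 CKO and 647 and 738 CPM in control in the smaller cluster, close to or above the 403 and 420 CPM and 582 and 401 CPM of the larger. The smaller cluster of control replicate 2 holds only 11 cells, with 2 UMIs each of Mki67 and Cntn2, under the 3 counts used as a floor, so no direction is given for those 2 genes in that library. Atoh1 rests there on 8 UMIs, and its 95% Poisson interval, 121 to 554 CPM, overlaps the 447 to 603 CPM of the larger cluster. The smaller cluster held 24.9% and 24.9% of the class in En1/2 CKO and 19.7% and 9.48% in control.

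**Figure D3:**
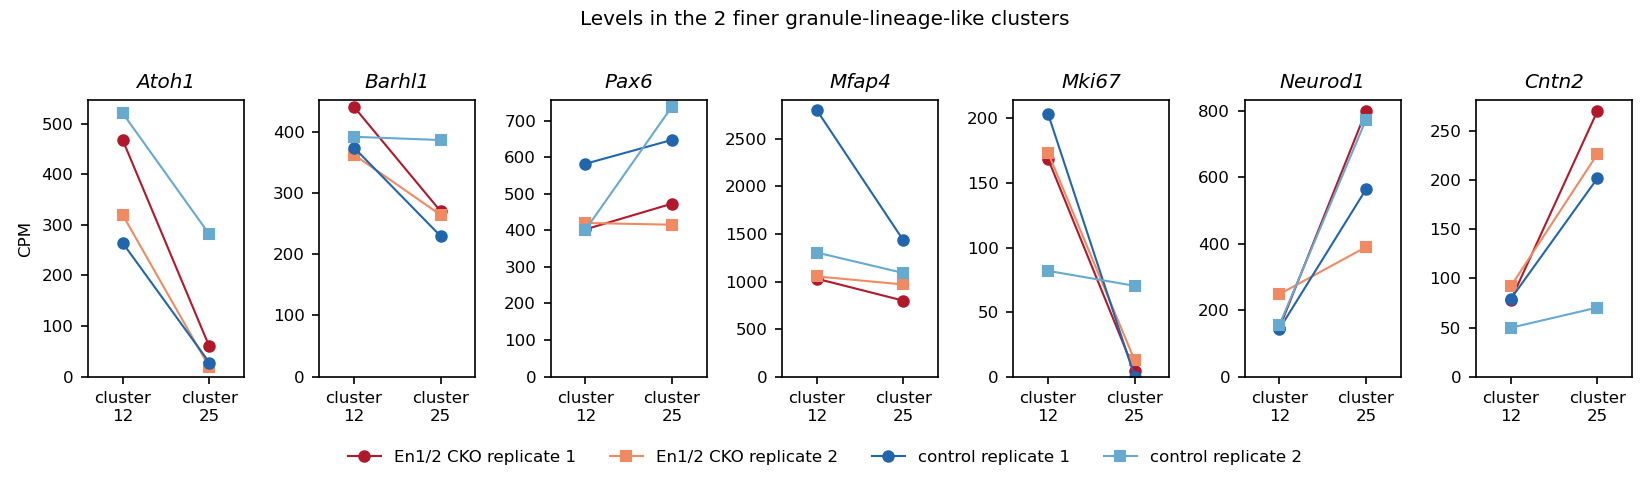
Level (CPM, y axis) in the larger finer cluster (12, left of each panel) and the smaller (25, right), 1 line per library. Atoh1 is lower and Neurod1 higher in cluster 25 in all 4 libraries, Mki67 is lower and Cntn2 higher in the 3 libraries other than control replicate 2 (2 UMIs of each in 11 cells), while Pax6 runs from 415 to 738 CPM in cluster 25 and from 401 to 582 CPM in cluster 12.

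By genotype, no gene of the 5 was called in granule-lineage-like cells. Atoh1 was at 395 and 272 CPM in En1/2 CKO and at 215 and 502 CPM in control, a difference within the spread of the controls (log2 fold change −0.15, SE 0.49, edgeR quasi-likelihood adjusted p = 0.979). Barhl1 was at 406 and 353 CPM in En1/2 CKO and 346 and 392 CPM in control, and its groups overlap (0.01, SE 0.30, edgeR adjusted p = 1). Pax6 was at 421 and 420 CPM in En1/2 CKO and 603 and 427 CPM in control (−0.30, SE 0.29, edgeR adjusted p = 0.924). Mfap4 was at 990 and 1083 CPM in En1/2 CKO and 2526 and 1289 CPM in control, with both En1/2 CKO libraries below both controls (−0.88, SE 0.41, edgeR adjusted p = 0.919). Barhl2 did not pass the filter on low counts, at 14 and 6 UMIs in En1/2 CKO and 5 and 1 in control. Of the 4 genes tested, 0 were called, and the edgeR test called 0% of the 8307 genes. On simulated counts of this class the test recovered 10% of 2-fold and 73% of 4-fold changes. The lack of a call therefore does not show that levels are equal. At an unadjusted p under 0.05, 119 were higher and 245 lower, and DESeq2 called 1. Pax6 and Mfap4 had both En1/2 CKO libraries below both controls, as did 15.4% of the genes tested.

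The direction for Atoh1 turned with the choice of control library. Without control replicate 1 it was lower in En1/2 CKO (−0.70), and without control replicate 2 it was higher (0.76). Each of these fits leaves 1 control, so its spread comes from the 2 En1/2 CKO libraries alone and only effect sizes are given. Mfap4 was lower in each of those fits, −0.44 without control replicate 1 and −1.18 without control replicate 2. Leaving out a control moved the number of called genes in this class more than leaving out an En1/2 CKO library did.

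**Figure D4:**
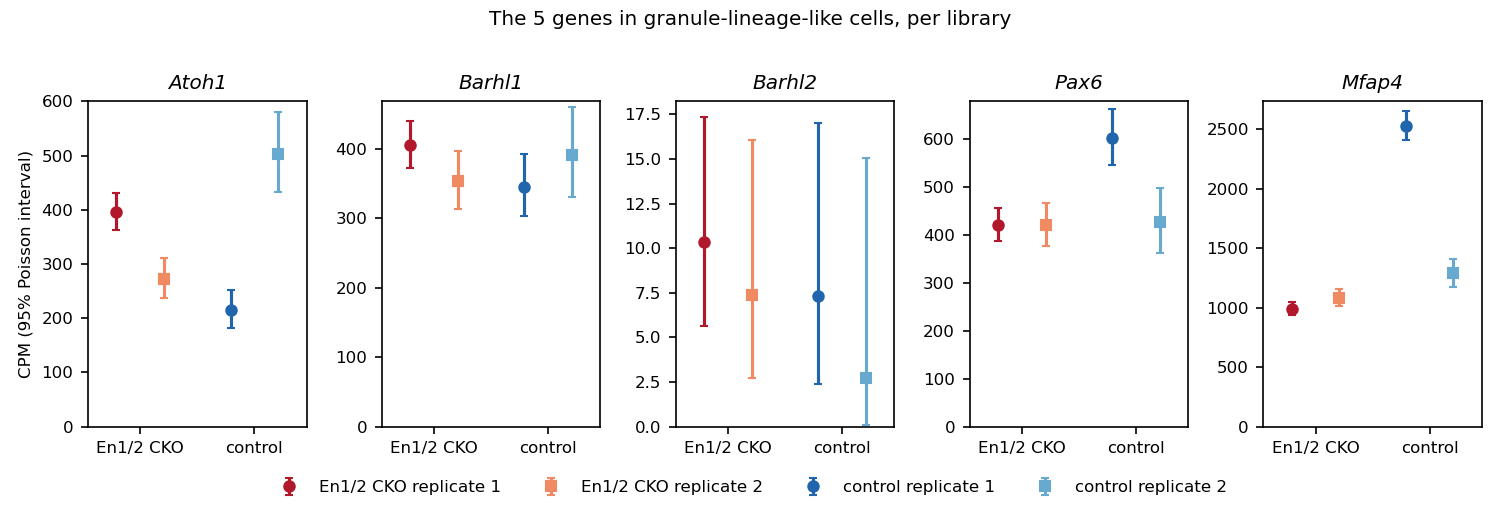
Level (CPM, y axis) of each gene in granule-lineage-like cells, 1 point per library with its 95% Poisson interval, En1/2 CKO on the left. Mfap4 at 990 and 1083 CPM lies below both controls, at 2526 and 1289 CPM, and the Barhl1 points of the 2 genotypes overlap.

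**Figure D5:**
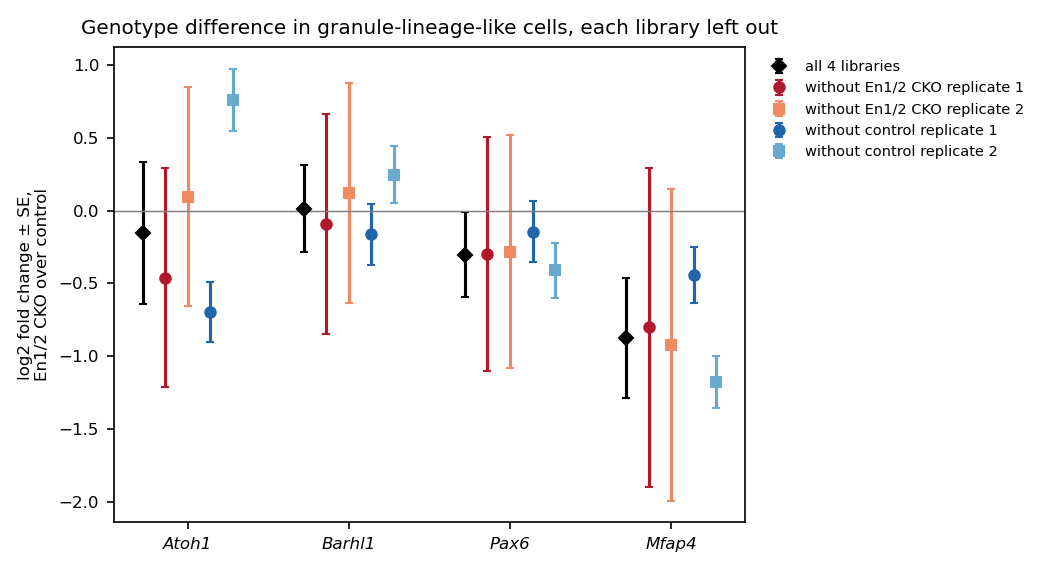
Log2 fold change (y axis, En1/2 CKO over control, ± SE) of the 4 tested genes with all 4 libraries and with each left out. Atoh1 is −0.70 without control replicate 1 and 0.76 without control replicate 2, and Mfap4 is below 0 in all 5 fits.

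No other listed granule lineage gene was called. Of a list of 28, 22 were tested in granule-lineage-like cells, 10 higher and 12 lower, and 0 were called, with a median log2 fold change of −0.09 beside −0.05 over all genes tested. Zic1, a zinc finger gene of granule cells, was at 608 and 584 CPM in En1/2 CKO and 524 and 729 CPM in control, Gap43, an axon growth protein, at 673 and 732 CPM in En1/2 CKO and 385 and 629 CPM in control, Meis1, a homeobox cofactor, at 367 and 302 CPM in En1/2 CKO and 353 and 427 CPM in control, and Reln, a secreted positioning protein, at 231 and 254 CPM in En1/2 CKO and 423 and 203 CPM in control. Of 28 genes of granule progenitor signalling and known Atoh1 targets, 23 were tested, 10 higher and 13 lower, and 0 were called, with a median of −0.45. Among them the nuclear factor I genes Nfib and Nfia were at 1063 and 1071 CPM and at 421 and 368 CPM in En1/2 CKO, against 764 and 1159 CPM and 220 and 986 CPM in control. Hes6 was at 825 and 587 CPM in En1/2 CKO and 530 and 613 CPM in control, and Ccnd2, a cell cycle cyclin, at 528 and 515 CPM in En1/2 CKO and 364 and 567 CPM in control. The deleted gene En2 was at 27.3 and 9.85 CPM in En1/2 CKO and 64.2 and 32.4 CPM in control granule-lineage-like cells (−1.34, SE 0.51, edgeR adjusted p = 0.919), and En1 at 48.0 and 54.2 CPM in En1/2 CKO and 59.9 and 48.6 CPM in control. Whether the counted 3' ends lie in the deleted parts is not given in the sources used here. Summed marker lists also differed between libraries of this class. Cycling markers were 2470 and 2793 CPM in En1/2 CKO and 1448 and 2210 CPM in control, choroid plexus markers 73.9 and 73.9 CPM in En1/2 CKO and 24.8 and 29.7 CPM in control, and glutamatergic nuclear neuron markers 313 and 318 CPM in En1/2 CKO and 305 and 205 CPM in control, each with both En1/2 CKO libraries above both controls. Lower in both En1/2 CKO libraries were the granule lineage markers without the 5 genes, at 2848 and 2756 CPM in En1/2 CKO and 2991 and 2918 CPM in control, and the Purkinje markers, at 723 and 718 CPM in En1/2 CKO and 905 and 778 CPM in control. So were the astroglia markers, at 204 and 252 CPM in En1/2 CKO and 368 and 257 CPM in control, and the mural or meningeal markers, at 3.70 and 8.62 CPM in En1/2 CKO and 13.1 and 10.8 CPM in control. Erythroid markers, at 529 and 551 CPM in En1/2 CKO and 2623 and 54.0 CPM in control, overlapped between genotypes, as did the other 6 of the 14 lists. In the other kept cells, choroid plexus markers were at 14720 and 4762 CPM in En1/2 CKO and 21.0 and 19.7 CPM in control. Purkinje markers there were at 1524 and 1428 CPM in En1/2 CKO and 2586 and 2236 CPM in control. The directions of these lists were thus not particular to granule-lineage-like cells. Mural or meningeal markers were higher in both En1/2 CKO libraries in the other cells, and the remaining lists named above overlapped there. No test was run on these sums. Of the single genes tested in this class, 15.4% also had both En1/2 CKO libraries below both controls, and the share above both controls is not given here. The part of these lists in the levels of the 5 genes was not tested.

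No comparison outside the class called any of these genes either. All 5 were tested over all kept cells, and 4 of them (not Barhl2) in each of 3 classes, the interneuron-like, the Purkinje-like and the progenitor-like cells, and 0 were called. In the class called progenitor-like, the Ptf1a intermediate progenitor-like and radial progenitor-like classes summed, Barhl1 was at 2.64 and 4.74 CPM in En1/2 CKO and 18.6 and 8.59 CPM in control (log2 fold change −2.10, SE 0.49, edgeR adjusted p = 0.676), and Atoh1 at 4.67 and 2.07 CPM in En1/2 CKO and 14.5 and 7.16 CPM in control (−1.78, SE 0.52, edgeR adjusted p = 0.676). In microglia-like cells, where neither gene belongs, Barhl1 ranged from 0 to 13.1 CPM and Atoh1 from 0 to 7.89 CPM, and only control replicate 1 exceeded these ranges in progenitor-like cells. Both passed the threshold when no filter on low counts was used (edgeR adjusted p = 0.00187 and 0.0487). That unfiltered fit called 88 of 17872 genes. With the filter, Barhl1 and Atoh1 were the 2 of 4 tested genes with both En1/2 CKO libraries below both controls. So were 16.5% of the 11295 genes tested in progenitor-like cells, of which edgeR called 0%. Without control replicate 2 the log2 fold change was −2.39 for Barhl1 and −2.01 for Atoh1, and both stayed below 0 with any library left out. In Purkinje-like cells Pax6 was at 9.41 and 16.4 CPM in En1/2 CKO and 32.3 and 26.1 CPM in control (−1.30, SE 0.47, edgeR adjusted p = 1), where the second control value is 2 UMIs in 27 cells. Pax6 in microglia-like cells ranged from 3.53 to 42.9 CPM, which spans these values, and 0.0223% of the 8977 genes were called. Pax6 and Barhl1 were below both controls in both En1/2 CKO libraries, as were 13.3% of these genes. The Pax6 log2 fold change in Purkinje-like minus that in interneuron-like cells was −1.07 (SE 0.47, edgeR adjusted p = 0.828), and 0.109% of 10130 genes were called for this difference. Over all kept cells Mfap4 was at 160 and 161 CPM in En1/2 CKO and 264 and 221 CPM in control (−0.67, SE 0.20, edgeR adjusted p = 0.942), and 0% of 14628 genes were called. It was the 1 gene of the 5 with both En1/2 CKO libraries below both controls, as were 12.1% of all genes. Dropping either control kept the Mfap4 log2 fold change below 0, at −0.56 when replicate 1 was dropped and −0.76 when replicate 2 was. The spread in those fits comes from the En1/2 CKO libraries alone, so they are given as effect sizes only.

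Granule-lineage-like cells made up 5.23% and 3.19% of kept cells in En1/2 CKO and 4.74% and 9.91% in control. The means were 4.21 ± 1.44% in En1/2 CKO and 7.32 ± 3.65% in control (SD, n = 2 each), a difference of −3.11 percentage points (2-sided exact permutation p = 0.667, where 0.333 is the smallest p these libraries allow). The difference turned to 0.895 percentage points under a stricter cell filter (1000 genes, 5% mitochondrial UMIs), and leaving out control replicate 2 gave −0.53, against −5.69 when control replicate 1 was left out.

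Likeness between genes was described across the 19 clusters with enough cells. By Pearson correlation of cluster levels over 11332 genes, Barhl1 was most like Atoh1 (r = 0.96), followed by Insm2 (0.94), Barhl2 (0.91), Ntf3 (0.91) and Nrn1 (0.89). Genes outside the 5 had to reach 20 CPM in some cluster, and the 5 were kept whatever their level. Barhl2 had only 42 UMIs in kept cells, and its Spearman correlation with Atoh1 was 0.42. The genes most like Pax6 were Meis1 (0.95), Adamts6 (0.85), Boc (0.84), Rif1 (0.84) and Rnaseh2a (0.83). The genes most like Mfap4 were Hey1 (0.87), Nkd1 (0.86), Tspan9 (0.81), Zeb1 (0.80) and Tead2 (0.80). Among the 5 genes, Mfap4 correlated with Atoh1 at 0.59, with Barhl2 at 0.57, with Pax6 at 0.54 and with Barhl1 at 0.46, and Pax6 with Barhl1 at 0.56, with Atoh1 at 0.51 and with Barhl2 at 0.45. The clusters share libraries and depth, and a single cluster with high values weighs heavily in these correlations.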

How the data were processed

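The deposited counts are UMIs per gene and cell from the 10x Genomics 3' v3.1 kit, made by the authors with Cell Ranger 6.1.0 on mm10, per the submitters' processing notes. A barcode counted as a cell from 500 detected genes upwards and up to 10% mitochondrial UMIs. Scrublet removed doublets, with its top 0.8% per 1000 barcodes taken in 3 libraries where its own threshold marked under 0.5%. Clustering (scanpy 1.11.5, 2000 variable genes, 30 components, 15 neighbours, Leiden resolution 1) left out the 5 genes, En1 and En2. Classes were named from marker lists, a gene counting as raised at 1.5-fold. The plan named granule cells by a list without the 5 genes. That list gave the name to another cluster, led by Nanos1 and Scx, so the list with the 5 genes was used, chosen after seeing the data. UMIs were summed per class and library and tested with edgeR's quasi-likelihood test (edgeR 4.0.16, TMM, filterByExpr, Benjamini-Hochberg 0.05), first tested on simulated data. There it recovered from 6% (all cells) to 24% (progenitor-like cells) of 2-fold changes. Of 4-fold changes it recovered from 73% (granule-lineage-like cells) to 88% (interneuron-like cells). DESeq2 1.42.0 was an alternative. Replicate numbers were not taken to pair the libraries. Named genes were the 5, and the 4 genes of highest level in each of 2 lists. The genes and lists were chosen with earlier results of these data known. A limit of 3 counts serves as the floor for zeros.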

Additional observations from a re-analysis of the deposited data

How the results depend on the processing

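With 2 libraries per genotype, the count of called genes changed most when a library was left out. Leaving out each library in turn gave 10 to 2581 called genes over all kept cells, 0 to 1278 in granule-lineage-like cells, 0 to 270 in Purkinje-like cells, 2 to 480 in interneuron-like cells, 0 to 2590 in progenitor-like cells and 1 to 77 for the difference between Purkinje-like and interneuron-like cells, where 11 were called with all libraries. These fits leave 1 genotype with a lone library, assumed to vary like the other genotype. Without a control, the spread came from the 2 En1/2 CKO libraries alone, so those counts do not carry the spread between controls. In the edgeR fits with no adjusted call, an unadjusted p under 0.05 was reached by 422 higher and 271 lower genes over all cells, 159 and 150 in interneuron-like cells and 357 and 449 in progenitor-like cells. DESeq2 called 52 genes over all cells, 1 in granule-lineage-like cells, and 2 each in the progenitor-like and the interneuron-like cells. Without a filter on low counts 19 genes were called in granule-lineage-like, 20 in Purkinje-like, 88 in progenitor-like and 14 in interneuron-like cells, and the stricter cell filter (1000 genes, 5% mitochondrial UMIs) gave 12 in Purkinje-like cells. With the replicate block 117 genes were called over all cells and 2 in interneuron-like cells. The deviations of same-numbered libraries correlated at 0.04 over all cells and −0.21 in granule-lineage-like cells, so the numbers were not taken to pair libraries. The crossed pairing, chosen after seeing the data, called 2 genes in progenitor-like, 8 in granule-lineage-like and 12 in interneuron-like cells.

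In granule-lineage-like cells the log2 fold change of Atoh1 ran from −0.70 to 0.76 with a library left out (0.10 without En1/2 CKO replicate 2) and was 0.25 under the stricter cell filter. Barhl1 ran from −0.16 to 0.25 (−0.09 without En1/2 CKO replicate 1) and was −0.016 with doublets kept. Pax6 ran from −0.41 to −0.14 and Mfap4 from −1.18 to −0.44. The difference in the share of granule-lineage-like cells was 0.895 percentage points under the stricter cell filter and ran from −5.69 to −0.53 with a library left out. With the marker list without the 5 genes, which names a different cluster, the mean share of UMIs held was 1.96% for Atoh1, 1.48% for Barhl1, 5.00% for Barhl2, 2.43% for Pax6 and 2.26% for Mfap4. The same list gave a log2 fold change of 0.16 for Mfap4 and a difference in cell share of 1.37 percentage points. For Barhl2 the stricter filter gave 76.0%, against 57.3% as the mean of libraries in the main setting. The cause of these changes was not tested, except that the other list is by construction another cluster. By Spearman instead of Pearson correlation, 1 of the 5 genes most like Atoh1, 2 for Barhl1, 0 for Barhl2, 3 for Pax6 and 2 for Mfap4 were shared.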

Other observations

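The class with the next highest Atoh1 and Barhl1 levels was named erythroid-like from its erythroid markers. Its 1562 cells were shallow, with median depths of 1034 and 833.5 UMIs in En1/2 CKO and 877 and 1066 UMIs in control. Atoh1 was there at 104 and 22.1 CPM in En1/2 CKO and 44.2 and 78.7 CPM in control, and Barhl1 at 69.6 and 30.8 CPM in En1/2 CKO and 62.3 and 52.5 CPM in control. These values rest on 52 Atoh1 UMIs in all. Thinned to 1000 UMIs, Atoh1 was found in 4.76% and 3.08% of the remaining cells in En1/2 CKO and in 5.81% and 12.1% in control. What these cells are was not tested.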
